A study of Mus musculus with 35 samples.

Results

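The clustered histone genes were taken as the genes whose symbol starts with Hist1h, Hist2h, Hist3h or Hist4h, pseudogenes left out. This rule gave 69 of the 49671 genes of the count table. There were 6 linker histone (H1), 20 H2A, 18 H2B, 12 H3 and 13 H4 genes. In the GRCm38 assembly, 56 of them with Hist1 names lay on chromosome 13, 10 in the Hist2 cluster on chromosome 3 (96219865 to 96270132), 2 in the Hist3 cluster on chromosome 11 (58948920 to 58956830) and 1, Hist4h4, on chromosome 6 (136801553 to 136804415). Of the Hist1 genes, Hist1h2al (51202727 to 51203065) lay far from the others, which were between 21715763 and 23934851. Low counts removed 3 genes (Hist1h2aa, Hist1h2ba and Hist2h3c1), so 66 were tested.

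These genes supply the histones that package newly made DNA. They are transcribed mostly in S phase, at nuclear bodies that hold the coactivator NPAT, and their mRNAs usually end in a stem-loop bound by SLBP in place of a poly(A) tail. A few of them also give polyadenylated mRNAs that persist in cells that have stopped dividing, and a few are used mainly in testis. Other histone genes, which lie alone in the genome, are transcribed outside S phase as well and were kept apart as a list for comparison.

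The cells were lin- HSPCs, stem and progenitor cells depleted of lineage-marked cells, from the bone marrow of C57Bl/6 mice. They carried a lentivirus, were sorted for mCherry (empty vector) or for mCherry and mEGFP (fusions) and grew for 1 plating in semisolid medium with myeloid and erythroid growth factors and GM-CSF. The 7 groups, of 5 libraries each, were an empty vector and 6 mEGFP-tagged forms of NUP98-HOXA9, a leukemia fusion of the FG-rich part of nucleoporin NUP98 with the DNA-binding homeodomain of HOXA9. The labels write G-NHX9 for the intact fusion, which is called G-NHA9 here. G-NHA9-8FA (label G-NHX9-8FA) has phenylalanines of its FG motifs changed to alanine. G-NHA9-21FGAA (G-NHX9-21FGAA) has FG pairs changed to alanines. G-NHA9Midi (G-NHX9-midi) keeps only a C-terminal stretch of the NUP98 part, and G-NHA9Midi-21FGAA (G-NHX9-midi-21FGAA) has the FG pairs of that form changed. G-NHA9-ΔDNA (G-NHX9-DDNA) carries homeodomain changes that weaken DNA binding. All groups thus share the virus and the culture but not the sort for mEGFP, and the fusions come from the virus and not from the Nup98 locus. The age label is 8 weeks for 32 libraries, but 9 and 10 weeks for libraries 4 and 5 of the empty vector and 11 weeks for library 1 of G-NHA9. These labels rise by 1 week from sample to sample in the order of the series, so they may be an error of entry. Whether they are true ages was not tested. The labels do not say whether libraries of a group come from separate mice or cultures. The paper describes cells of male and female mice and triplicate transductions, which does not explain the 5 libraries of each group. The p-values thus measure only the spread between these libraries, which may be technical. Bulk counts cannot tell fewer cells of a type from less RNA per cell.

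Total counts per library were between 31559914 and 75810659, of which the 69 genes took 0.289% to 0.911%. The libraries were of total RNA, so mRNAs without a poly(A) tail were not selected against. Levels are in CPM, the count relative to the TMM-scaled library total. Hoxa9, the mouse gene named like the HOXA9 part of the fusions, was at 0.693 to 1.26 CPM in the empty vector. Its level was 79.3 to 113 CPM in G-NHA9, 28.5 to 41.5 in G-NHA9-8FA, 25.5 to 44.4 in G-NHA9Midi and 16.9 to 23.0 in G-NHA9-ΔDNA. In G-NHA9-21FGAA and G-NHA9Midi-21FGAA Hoxa9 was at 1 to 5.15 and 0.242 to 2.18 CPM. How much of these counts comes from the viral transcript was not tested, so Hoxa9 does not check the 21FGAA labels.

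The stem-loop at the 3′ end is what sets the mRNAs of these genes apart, and the forms that a search found are shown first. A stem of 6 base pairs with a 4-base loop was found in the GENCODE gene model of 44 of the 69 genes. The search required GG at the start, CC at the end, C or T at bases 4 to 6 and TT as the first 2 loop bases. The sequences are given 5′ to 3′ in the sense of the mRNA, with the loop in capitals.
Common form, 26 genes of all types but H4: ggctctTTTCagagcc
H4 form, 7 genes (Hist1h4c, Hist1h4d, Hist1h4f, Hist1h4h, Hist1h4m, Hist1h4n and Hist4h4): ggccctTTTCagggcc
Loop variant, 6 genes (Hist1h1t, Hist1h2bb, Hist1h2bk, Hist1h3c, Hist1h3e and Hist1h3f): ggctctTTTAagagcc
Another H4 form, 2 genes (Hist1h4i and Hist2h4): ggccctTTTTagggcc
Last H4 form, 2 genes (Hist1h4b and Hist1h4j): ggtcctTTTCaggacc
Single form of Hist2h2ac: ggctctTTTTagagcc
Among the matches the H4 genes thus differ from the others in the stem, and the rest vary in the last loop base. Many positions were fixed or limited by the search, so the matches do not show which position varies most. A model without a match may end before the stem-loop or hold a form outside the search, so a missing match says nothing about the mRNA.

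Promoters were matched to RefSeq (GRCm38.p6) for 61 of the 69 genes. The 250 bases before the start site are shown for 5 genes on which the results turn: the H1 genes Hist1h1a and Hist1h1c, an abundant H2B and an abundant H4 gene, and Hist3h2ba, the member that departed from the others. Capitals mark the CCAAT box, the TATA box in its form TATAAA, the H1 box, spelled AAACACA, and the octamer ATTTGCAT, each searched on both strands.
Hist1h1a, chr13:23763418-23763667, plus strand: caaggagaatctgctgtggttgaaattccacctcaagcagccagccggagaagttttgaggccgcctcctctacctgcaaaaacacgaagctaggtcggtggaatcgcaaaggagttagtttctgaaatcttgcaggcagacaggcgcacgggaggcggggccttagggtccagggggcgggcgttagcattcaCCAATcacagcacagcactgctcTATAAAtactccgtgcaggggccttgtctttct
Hist1h1c, chr13:23738557-23738806, plus strand: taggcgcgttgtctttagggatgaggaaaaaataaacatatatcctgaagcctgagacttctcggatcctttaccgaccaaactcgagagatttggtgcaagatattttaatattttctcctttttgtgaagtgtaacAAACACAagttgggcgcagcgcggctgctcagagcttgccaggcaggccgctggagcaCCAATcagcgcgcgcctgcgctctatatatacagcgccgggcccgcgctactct
Hist1h2bb, chr13:23746484-23746733, plus strand: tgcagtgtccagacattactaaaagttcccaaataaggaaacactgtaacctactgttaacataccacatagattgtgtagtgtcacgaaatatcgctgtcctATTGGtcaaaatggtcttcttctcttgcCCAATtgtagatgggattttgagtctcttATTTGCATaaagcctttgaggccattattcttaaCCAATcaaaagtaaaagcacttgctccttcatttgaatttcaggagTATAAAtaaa
Hist1h4d, chr13:23581318-23581567, plus strand: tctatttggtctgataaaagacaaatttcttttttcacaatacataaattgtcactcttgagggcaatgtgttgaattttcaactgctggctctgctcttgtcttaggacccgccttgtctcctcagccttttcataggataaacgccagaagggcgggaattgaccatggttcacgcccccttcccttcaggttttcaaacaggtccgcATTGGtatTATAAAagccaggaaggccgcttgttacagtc
Hist3h2ba, chr11:58948661-58948910, plus strand: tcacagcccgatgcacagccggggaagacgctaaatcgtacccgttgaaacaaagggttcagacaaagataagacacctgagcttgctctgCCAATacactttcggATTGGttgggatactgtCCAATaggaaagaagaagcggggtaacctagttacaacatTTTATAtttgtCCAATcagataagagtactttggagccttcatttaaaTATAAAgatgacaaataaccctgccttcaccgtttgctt
In windows of 300 bases (250 before and 50 after the start), CCAAT was found in 5 of 5 H1, 18 of 18 H2A, 16 of 16 H2B, 10 of 10 H3 and 3 of 12 H4 promoters, against 37.41% of 32851 promoters of all genes. The octamer was found in 7 H2A and 6 H2B promoters and in no H1, H3 or H4 promoter, against 1.74% of all. AAACACA, found in 7.18% of all promoters, was in 4 of the 5 H1 promoters, in 2 H2A and in 2 H2B promoters. TATAAA was in 3, 11, 8, 4 and 8 promoters of H1, H2A, H2B, H3 and H4 genes, against 13.62% of all. A match describes the letters only. It is not evidence of a bound site, and no motif contains another.

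Together the 69 genes were higher in the fusions than in the empty vector, though not in every library. Their summed level in the 5 empty-vector libraries was 4667, 3928, 4488, 3135 and 3477 CPM, in the order of the label numbers. In G-NHA9 it was 5765, 7992, 7017, 5370 and 5373 CPM, and in G-NHA9-ΔDNA 6512, 9021, 7354, 4962 and 4824 CPM. Every library of both groups lay above the highest empty-vector library.

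In G-NHA9-21FGAA the summed level was 4698, 7791, 6743, 6927 and 6448 CPM, again above every empty-vector library, the lowest of them by a small margin. In G-NHA9Midi-21FGAA it was 4531, 6810, 6736, 6000 and 5123 CPM, with library 1 inside the empty-vector range. The spread was widest in G-NHA9Midi, at 2919, 8805, 6730, 5505 and 7948 CPM, where library 1 was below all empty-vector libraries. In G-NHA9-8FA, at 3435, 4457, 4660, 7834 and 7936 CPM, only libraries 4 and 5 exceeded the empty vector. Means and SDs (n = 5) were 3939 ± 650 CPM in the empty vector, 6303 ± 1160 in G-NHA9, 5665 ± 2080 in G-NHA9-8FA, 6381 ± 2300 in G-NHA9Midi, 6521 ± 1140 in G-NHA9-21FGAA, 5840 ± 999 in G-NHA9Midi-21FGAA and 6534 ± 1750 in G-NHA9-ΔDNA. The ratios of the means to that of the empty vector were thus 1.6, 1.44, 1.62, 1.66, 1.48 and 1.66.

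**Figure D1:**
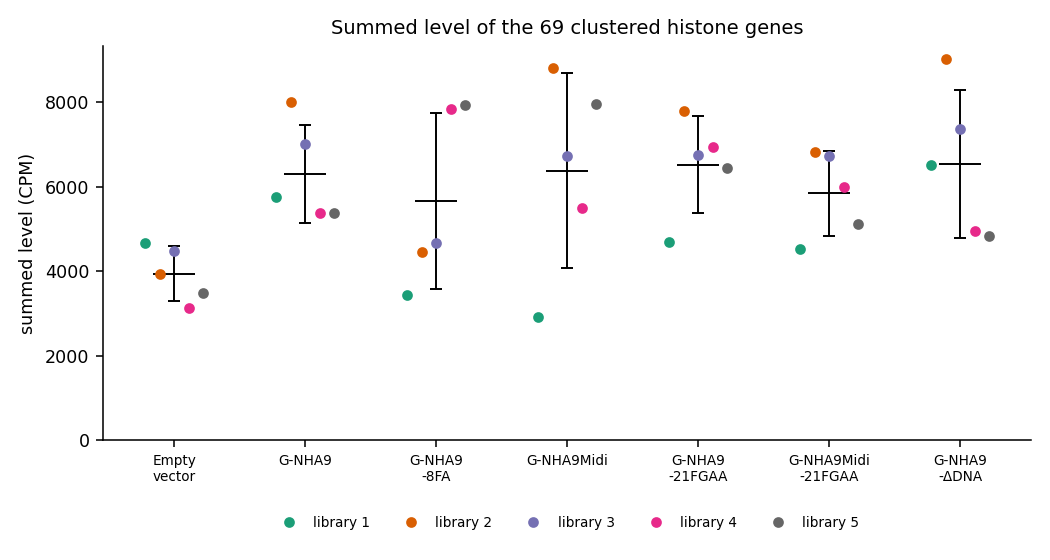
Summed level of the 69 clustered histone genes (CPM after TMM scaling, y axis) in each library of the 7 groups (x axis); each point is 1 library, and the bar and whiskers are the mean and SD of 5. G-NHA9, G-NHA9-ΔDNA and G-NHA9-21FGAA lie wholly above the empty vector (3135 to 4667 CPM). G-NHA9-8FA (from 3435 CPM) overlaps that range, and G-NHA9Midi (from 2919 CPM) reaches below it.

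The 2 empty-vector libraries with the lowest summed level, 4 and 5, were also those with age labels of 9 and 10 weeks. With the libraries of 8 weeks alone, the empty vector was at 4361 ± 385 CPM (SD, n = 3), and the ratios of the means fell to 1.3 at the lowest (the 8FA form) and 1.5 at the highest (the ΔDNA and 21FGAA forms). The age label, which may be an error of entry, and whatever else differs between these libraries cannot be told apart.

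Gene by gene, many members passed the test against the empty vector in some constructs and few in others. With edgeR's quasi-likelihood test and Benjamini-Hochberg adjustment over 17166 genes at 0.05, 43 of the 66 tested members were higher and 1 was lower in G-NHA9, where 16.9% of all genes tested were higher and 15.2% lower. In G-NHA9-21FGAA 46 were higher and none was lower, against 14.7% and 12.5% of all genes. In G-NHA9-ΔDNA 41 were higher and none lower, against 9.85% and 7.35%. In G-NHA9Midi 34 were higher and none lower, against 20.5% and 20%. The counts were smaller in G-NHA9Midi-21FGAA, where 19 were higher and none lower against 9.59% and 7.32%, and in G-NHA9-8FA, where 12 were higher and 1 lower against 13.4% and 13.2%. As shares of the 66 members, 65.2%, 69.7%, 62.1%, 51.5%, 28.8% and 18.2% were higher in these 6 constructs, so that the share in G-NHA9-8FA was close to that over all genes.

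The sizes of the differences were more even than the counts. The median log2 fold change of the 66 members was 0.80 in G-NHA9, 0.56 in G-NHA9-8FA, 0.74 in G-NHA9Midi, 0.89 in G-NHA9-21FGAA, 0.73 in G-NHA9Midi-21FGAA and 0.87 in G-NHA9-ΔDNA, where the medians over all genes lay between -0.02 and 0.03. The fold change was positive for 63 to 66 of the 66 members in every construct. All 6 comparisons share the empty-vector libraries, so a low value there raises every one of them.

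**Figure D2:**
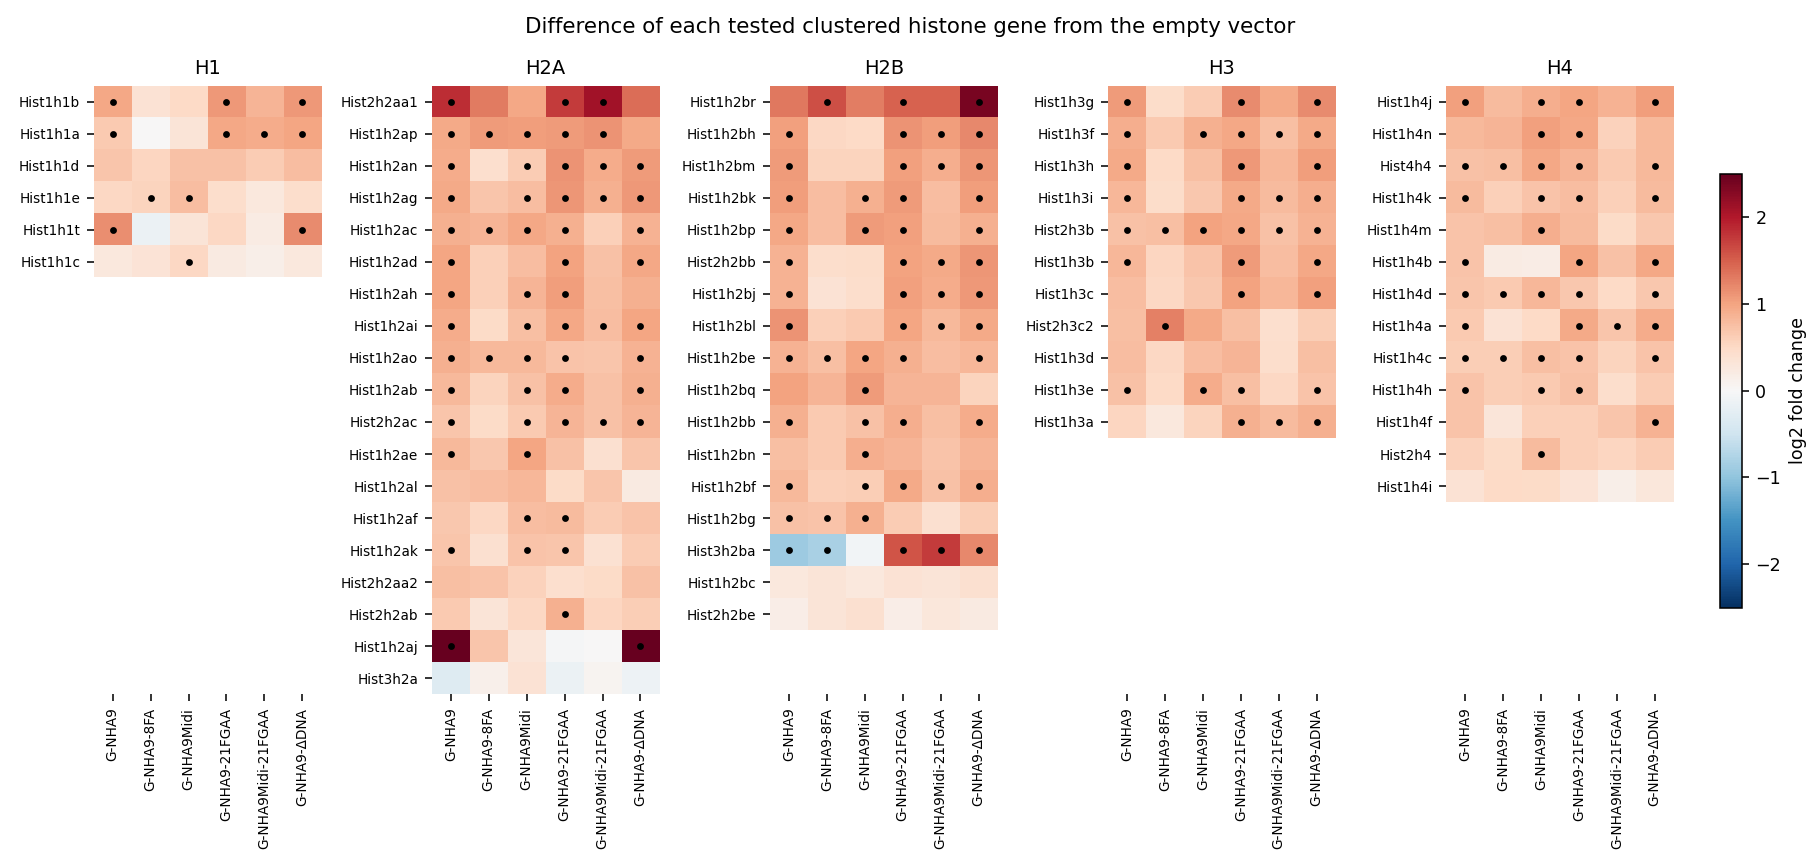
Log2 fold change against the empty vector (color scale) of the 66 tested members (rows, 1 panel for each histone type) in the 6 constructs (columns); values past the end of the scale have its end color, and a dot marks a gene past the threshold of 0.05. Most cells are on the higher side, with fewest dots in G-NHA9-8FA (13), and Hist3h2ba is lower in G-NHA9 and G-NHA9-8FA and higher in the 3 constructs on the right.

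These counts rested on few libraries. With the 8-week libraries alone (an alternative chosen after the data were seen), 6 members were higher and 1 lower in G-NHA9, 0 and 1 in G-NHA9-8FA, 6 and 0 in G-NHA9Midi, 7 and 0 in G-NHA9-21FGAA, 1 and 0 in G-NHA9Midi-21FGAA and 6 and 0 in G-NHA9-ΔDNA. The shares of all genes that were higher in the same fits were 12.9%, 8.36%, 13.7%, 9.75%, 4.03% and 5.44%, so that the members were called less often than other genes in all constructs but the ΔDNA and 21FGAA forms, as a description. The direction was kept, with 62 to 66 members positive and medians of 0.66, 0.39, 0.56, 0.72, 0.55 and 0.69 on the log2 scale. For G-NHA9-8FA, 8 members had an unadjusted p under 0.05 in that fit. Of 89 calls of the named genes against the empty vector, 30 held whichever library was left out and 14 held with the 8-week libraries alone.

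Single libraries also moved the counts by over 1.5 times. The shares of all genes called in these fits are not given here. The counts thus do not show whether the members moved more than other genes. For G-NHA9, the 44 called members became 24 without empty-vector library 4, 28 without 5 and 21 without G-NHA9 library 2. For G-NHA9-ΔDNA, the 41 became 27, 22 and 24 without empty-vector library 2, 4 or 5, and 12 and 21 without its own library 2 or 3. For G-NHA9Midi, the 34 became 22, 18 and 17 without empty-vector library 2, 4 or 5, 15, 22 and 18 without its own library 2, 3 or 5, and 58 without its library 1. For G-NHA9-8FA, the 13 became 5, 7 and 5 without empty-vector library 2, 4 or 5, 1 and 3 without its own library 4 or 5, and 25 without its library 1. For G-NHA9Midi-21FGAA, the 19 became 29 without empty-vector library 1, 9, 8 and 8 without library 2, 4 or 5, 31 without its own library 1, and 10, 7 and 9 without its library 2, 3 or 4. Only for G-NHA9-21FGAA did no single library move the count that far (36 to 50 called). For G-NHA9Midi-21FGAA the library numbers were taken to pair libraries. With the number as a block it had 31 members higher in place of 19, against 13.2% of all genes.

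Not overlapping with the empty vector is a stricter description. In G-NHA9, 27 of the 66 members had all 5 libraries above all 5 of the empty vector (10.6% of all genes tested), and 1 had all 5 below (9.51%). The count above was 27 in G-NHA9-21FGAA (9.05% of all genes), 27 in G-NHA9-ΔDNA (5.82%) and 17 in G-NHA9Midi-21FGAA (5.98%). It was 0 in G-NHA9-8FA (8.32%) and 0 in G-NHA9Midi (13.4%). In these 5 constructs no member had all libraries below, against 7.79%, 6.31%, 5.49%, 8.75% and 13.9% of all genes.

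No comparison with the empty vector called 8 of the 66 members higher, namely Hist1h1d, Hist1h2al, Hist1h2bc, Hist1h3d, Hist1h4i, Hist2h2aa2, Hist2h2be and Hist3h2a. Hist2h3b, which encodes H3, was called higher in each of them (ENSMUSG00000074403.2, chr3, 96268654 to 96269141, plus strand, a single exon). It is described here because of that, so it was chosen after its values were seen. It was at 49.2, 39.2, 47.5, 26.2 and 25.9 CPM in the empty vector and at 47.5, 51.9, 50.2, 78.4 and 89.5 CPM in G-NHA9-8FA. In G-NHA9Midi it was at 34.0, 104, 87.5, 65.9 and 86.4 CPM. Libraries 4 and 5 of the empty vector were the lowest, and in both constructs library 1 lay within the empty-vector range. The log2 fold changes were 0.74 in G-NHA9, 0.75 in G-NHA9-8FA, 1.00 in G-NHA9Midi, 0.96 in G-NHA9-21FGAA, 0.74 in G-NHA9Midi-21FGAA and 0.86 in G-NHA9-ΔDNA (SE 0.26). With the 8-week libraries alone they were 0.47 to 0.72, with adjusted p between 0.064 and 0.32 (edgeR). Of its 100-base words, 77.1% also occur in another gene, so its reads could be split with near-identical copies.

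The core histone genes H2A, H2B, H3 and H4 make the octamer on which DNA is wound. The counts by type and cluster below stand against the shares of all genes tested that were higher. These were 16.9% in G-NHA9, 13.4% in G-NHA9-8FA, 20.5% in G-NHA9Midi, 14.7% in G-NHA9-21FGAA, 9.59% in G-NHA9Midi-21FGAA and 9.85% in G-NHA9-ΔDNA. Some small counts, such as 3 of 19 H2A genes in G-NHA9-8FA, lay near these shares. Of the H2A genes, 14, 3, 12, 14, 6 and 9 of the 19 tested were higher in G-NHA9, G-NHA9-8FA, G-NHA9Midi, G-NHA9-21FGAA, G-NHA9Midi-21FGAA and G-NHA9-ΔDNA, with medians between 0.60 and 0.88. The most abundant was Hist2h2ac (ENSMUSG00000068855.3, chr3, 96220361 to 96220880, minus strand), the gene with a stem-loop form of its own. It was at 83.2, 78.0, 81.9, 53.2 and 68.6 CPM in the empty vector and at 90.01, 155, 131, 144 and 138 CPM in G-NHA9-21FGAA. The groups did not overlap, with library 1 of G-NHA9-21FGAA close to the top of the empty vector. It overlaps Gm44492 on the opposite strand. It was called in 5 constructs, at 0.69 in G-NHA9, 0.65 in G-NHA9Midi, 0.85 (SE 0.23, adjusted p = 0.0068, edgeR) in G-NHA9-21FGAA, 0.74 in G-NHA9Midi-21FGAA and 0.84 in G-NHA9-ΔDNA. Of these calls, that in G-NHA9-21FGAA held whichever library was left out. The call in G-NHA9-ΔDNA was lost without its library 2 (adjusted p = 0.056), and the other 3 were each lost without empty-vector library 4 or 5 (0.051 to 0.085) and without 1 or 2 libraries of their own (0.056 to 0.1, edgeR). All 5 were lost with the 8-week libraries alone, at 0.49 to 0.71 (0.075 to 0.2).

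Hist1h2ab and Hist1h2ak followed among the H2A genes. Hist1h2ab was at 58.5 ± 16.7 CPM in the empty vector and 111 ± 17.6 in G-NHA9-21FGAA (SD, n = 5), and Hist1h2ak at 41.5 ± 9.69 and 67.5 ± 13.9. The log2 fold changes of Hist1h2ab were 0.81, 0.55, 0.74, 0.93, 0.73 and 0.88, with G-NHA9, G-NHA9Midi, G-NHA9-21FGAA and G-NHA9-ΔDNA past the threshold. Those of Hist1h2ak were 0.39 to 0.72, with G-NHA9, G-NHA9Midi and G-NHA9-21FGAA past it. Of these 7 calls, only that of Hist1h2ab in G-NHA9-21FGAA survived the removal of each library in turn. Those of Hist1h2ab in G-NHA9, G-NHA9Midi and the ΔDNA form were lost without empty-vector library 4 or 5 or the construct's library 2 and others (adjusted p 0.052 to 0.1), and those of Hist1h2ak without empty-vector library 2 or 3 or the construct's library 2 and others (0.052 to 0.11). None held with the 8-week libraries alone (adjusted p 0.085 to 0.26, edgeR). Both genes overlap a gene on the opposite strand (Gm44484 and Gm44454). Hist1h2ai was the H2A gene whose call lasted best, at 0.96, 1.02, 0.77 and 1.01 in G-NHA9, G-NHA9-21FGAA, G-NHA9Midi and G-NHA9-ΔDNA with the 8-week libraries alone (adjusted p 0.011 to 0.034, edgeR). It is named for that, and 88.4% of its words are shared with other genes.

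Of the H2B genes, 11, 3, 8, 12, 7 and 12 of the 17 tested were higher in the same order of constructs, and 1 was lower in G-NHA9 and in G-NHA9-8FA. The medians were 0.87, 0.60, 0.65, 0.98, 0.80 and 0.92. Hist1h2bb (ENSMUSG00000075031.3, chr13, 23746734 to 23747241, plus strand), whose promoter holds both the octamer and CCAAT, was at 142, 106, 125, 91.7 and 94.3 CPM in the empty vector. In G-NHA9 it was at 173, 276, 241, 174 and 167 CPM, above every empty-vector library. In G-NHA9-8FA it was at 91.2, 124, 141, 246 and 284 CPM, which spans the empty-vector range and goes beyond it. The log2 fold changes were 0.88 in G-NHA9, 0.66 (adjusted p = 0.079) in G-NHA9-8FA, 0.74 in G-NHA9Midi, 0.91 in G-NHA9-21FGAA, 0.76 (adjusted p = 0.057) in G-NHA9Midi-21FGAA and 0.92 in G-NHA9-ΔDNA, each with an SE of 0.28 (edgeR). Its call in G-NHA9 was lost without G-NHA9 library 2 (adjusted p = 0.057), and that in G-NHA9-21FGAA with no single library. The calls in G-NHA9Midi and G-NHA9-ΔDNA were each lost without any of empty-vector libraries 2, 4 and 5 (adjusted p 0.052 to 0.086) or without 2 or 3 libraries of their own (0.054 to 0.11). All 4 calls were lost with the 8-week libraries alone, at 0.57 to 0.77 (0.1 to 0.21).

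Hist1h2be and Hist1h2bg were higher in 5 and 3 constructs. Hist1h2be was at 112 ± 24.9 CPM in the empty vector and 221 ± 91.0 in G-NHA9Midi, and Hist1h2bg at 87.1 ± 24.3 and 161 ± 56.9 (SD, n = 5). In G-NHA9Midi both calls, at 0.98 and 0.89 on the log2 scale, survived the removal of each library but not the restriction to 8-week libraries (0.79 and 0.62, adjusted p = 0.076 and 0.1, edgeR). Their other 6 calls were each lost without empty-vector library 4 (adjusted p 0.05 to 0.12), and all but that of Hist1h2be in G-NHA9-21FGAA also without libraries of the construct (0.052 to 0.17, edgeR). In G-NHA9-8FA and G-NHA9-ΔDNA the calls of Hist1h2be were also lost without empty-vector library 1, 2 or 5 (0.061 to 0.12), and those of Hist1h2bg in G-NHA9 and G-NHA9-8FA without library 5 (0.073 and 0.1). These 6 were lost with the 8-week libraries as well (0.092 to 0.31). The model of Hist1h2be reaches over Hist1h1e on the same strand (chr13, 23583670 to 23621124), so that reads of the 2 genes could be confused. With pairing by library number, Hist1h2be in G-NHA9Midi-21FGAA passed the threshold as well.

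Of the H3 genes, 7, 2, 3, 9, 4 and 9 of the 11 tested were higher, with medians of 0.78, 0.51, 0.76, 0.96, 0.78 and 0.91. Hist1h3f (ENSMUSG00000100210.1, chr13, 23544052 to 23545312, plus strand) was the most abundant, at 149, 106, 135, 88.6 and 106 CPM in the empty vector and 207, 269, 238, 181 and 205 CPM in G-NHA9. In G-NHA9-ΔDNA it was at 230, 320, 248, 168 and 158 CPM. Neither construct overlapped the empty vector. The log2 fold changes were 0.91 in G-NHA9, 0.88 in G-NHA9Midi, 0.96 in G-NHA9-21FGAA, 0.75 in G-NHA9Midi-21FGAA and 0.94 in G-NHA9-ΔDNA, and in G-NHA9-8FA 0.66 with an adjusted p of 0.051 (edgeR). All of these calls but that in G-NHA9Midi-21FGAA, which was lost without any of empty-vector libraries 2, 4 and 5 or its own libraries 2, 3 and 4 (adjusted p 0.064 to 0.1), held when 1 library was left out. With the 8-week libraries alone all were lost, at 0.61 to 0.82 (adjusted p 0.062 to 0.21).

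Hist1h3e and Hist1h3c were next. Hist1h3e was called in G-NHA9 (0.74), G-NHA9Midi (0.92), G-NHA9-21FGAA (0.75) and G-NHA9-ΔDNA (0.71), and Hist1h3c in G-NHA9-21FGAA (1.01) and G-NHA9-ΔDNA (1.02). Hist1h3c was at 130, 81.6, 107, 58.6 and 64.5 CPM in the empty vector and at 113, 209, 164, 232 and 175 CPM in G-NHA9-21FGAA, where library 1 lay within the empty-vector range. The calls of Hist1h3e in G-NHA9Midi and of Hist1h3c in G-NHA9-21FGAA held whichever library was left out, and that of Hist1h3e in G-NHA9-21FGAA was lost without empty-vector library 4 (adjusted p = 0.052). The other 3 were lost without empty-vector library 4 (0.058 to 0.098) and without library 2 of the construct itself (0.055 to 0.15), in G-NHA9-ΔDNA also without others (0.05 to 0.074, edgeR). None of the 6 calls held with the 8-week libraries alone (adjusted p 0.055 to 0.23), where Hist1h3e was at 0.68 in G-NHA9Midi and Hist1h3c at 0.76 in G-NHA9-21FGAA.

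Of the 13 H4 genes, 8, 3, 9, 9, 1 and 8 were higher, with medians of 0.72, 0.62, 0.76, 0.78, 0.57 and 0.79. Hist1h4d (ENSMUSG00000061482.6, chr13, 23581598 to 23582735, plus strand) shares no 100-base word with another gene and was at 276, 214, 228, 198 and 238 CPM in the empty vector. It was at 332, 419, 389, 342 and 385 CPM in G-NHA9 and at 225, 547, 432, 359 and 486 CPM in G-NHA9Midi. The 5 G-NHA9 libraries lay above the empty vector, as did 4 of the 5 of G-NHA9Midi. Its log2 fold changes were 0.69 in G-NHA9, 0.66 in G-NHA9-8FA, 0.83 in G-NHA9Midi (SE 0.19, adjusted p = 0.00071, edgeR), 0.68 in G-NHA9-21FGAA and 0.68 in G-NHA9-ΔDNA, and 0.50 in G-NHA9Midi-21FGAA (adjusted p = 0.065). The calls in G-NHA9 and G-NHA9Midi also held with the 8-week libraries alone (0.67 and 0.76, adjusted p = 0.04 and 0.014). The call in G-NHA9-8FA was lost without its library 4 or 5 (0.065 and 0.066) and that in G-NHA9-ΔDNA without its library 2 (0.054). In the 8-week libraries those in G-NHA9-21FGAA, G-NHA9-8FA and G-NHA9-ΔDNA were lost (0.054, 0.079 and 0.075).

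Hist1h4c, Hist1h4h and Hist4h4, which share the H4 form of the stem-loop with Hist1h4d, were close to it in size. The log2 fold changes of Hist1h4c were 0.56 to 0.76, those of Hist1h4h 0.44 to 0.73 and those of Hist4h4 0.66 to 0.96. Hist1h4c and Hist4h4 were called in all constructs but G-NHA9Midi-21FGAA (adjusted p = 0.055 and 0.076), and Hist1h4h in G-NHA9, G-NHA9Midi and G-NHA9-21FGAA. Hist1h4c in G-NHA9Midi and G-NHA9-21FGAA and Hist4h4 in the same 2 constructs held whichever library was left out, and the other 9 calls were lost without 1 or more libraries, each of them without empty-vector library 4 (adjusted p 0.052 to 0.087, edgeR). Of these 13 calls, those of Hist1h4c (0.65, adjusted p = 0.048) and Hist4h4 (0.82, 0.044) in G-NHA9Midi held with the 8-week libraries alone and the other 11 did not (0.078 to 0.17, edgeR). Of the Hist2 cluster, 4, 2, 3, 5, 4 and 3 of the 9 tested genes were higher, and of the Hist1 cluster 38, 9, 30, 39, 14 and 36 of 54.

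The linker histones, which bind the DNA between nucleosomes, made up 32.3% ± 1.78 of the summed level in the empty vector (SD, n = 5). Of the 6 H1 genes, 3, 1, 2, 2, 1 and 3 were higher in G-NHA9, G-NHA9-8FA, G-NHA9Midi, G-NHA9-21FGAA, G-NHA9Midi-21FGAA and G-NHA9-ΔDNA. Hist1h1a (ENSMUSG00000049539.2, chr13, 23763666 to 23764406, plus strand) was at 88.1, 63.4, 63.4, 52.0 and 61.4 CPM in the empty vector and at 50.8, 42.9, 58.3, 80.6 and 95.01 CPM in G-NHA9-8FA. It was at 95.8, 135, 131, 134 and 147 CPM in G-NHA9-21FGAA. G-NHA9-8FA overlapped the empty vector almost wholly, and G-NHA9-21FGAA not at all.

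In G-NHA9Midi, Hist1h1a was at 48.5, 110, 102, 63.7 and 84.7 CPM, and in G-NHA9Midi-21FGAA at 87.1, 128, 148, 136 and 123 CPM. In G-NHA9-ΔDNA it was at 141, 174, 143, 107 and 86.1 CPM. Its log2 fold change was 0.66 (SE 0.22, adjusted p = 0.018) in G-NHA9, -0.00 (0.99) in G-NHA9-8FA, 0.32 (0.25) in G-NHA9Midi, 0.97 (0.0012) in G-NHA9-21FGAA, 0.92 (0.0042) in G-NHA9Midi-21FGAA and 0.99 (0.0026) in G-NHA9-ΔDNA, by edgeR. The difference between constructs was itself past the threshold for G-NHA9-8FA against G-NHA9 (-0.67, adjusted p = 0.035) and for G-NHA9Midi-21FGAA against G-NHA9Midi (0.61, adjusted p = 0.022). The first of these was lost with the 8-week libraries alone (-0.64, adjusted p = 0.061) and, as no member was then called, with only the 2 groups in the fit (edgeR). In the second comparison 2 members were called, Hist1h1a and Hist3h2ba. This count fell to 1 without G-NHA9Midi library 4 or certain single libraries of G-NHA9Midi-21FGAA, so the call of Hist1h1a may not hold there. The call in G-NHA9 was lost without empty-vector library 4 (0.059) or G-NHA9 library 5 (0.054). With the 8-week libraries alone the calls in G-NHA9-21FGAA and G-NHA9-ΔDNA held (0.85 and 0.87, adjusted p = 0.024 and 0.035), and those in G-NHA9 and G-NHA9Midi-21FGAA were lost, at 0.50 (0.17) and 0.81 (0.054).

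Hist1h1b (ENSMUSG00000058773.2, chr13, 21779883 to 21780625, minus strand) was at 149, 102, 145, 103 and 121 CPM in the empty vector and at 209, 280, 235, 214 and 277 CPM in G-NHA9. It was at 58.6, 120, 128, 253 and 242 CPM in G-NHA9-8FA and at 52.1, 281, 168, 136 and 233 CPM in G-NHA9Midi. G-NHA9 lay above the empty vector in every library, whereas the other 2 constructs ranged from below the empty vector to well above it. Its log2 fold change was 0.97 in G-NHA9, 1.08 in G-NHA9-21FGAA and 1.08 in G-NHA9-ΔDNA, which were called, and 0.37, 0.49 and 0.85 in G-NHA9-8FA, G-NHA9Midi and G-NHA9Midi-21FGAA, which were not (adjusted p = 0.41, 0.21 and 0.054, edgeR, SE 0.31). With pairing by library number the value in G-NHA9Midi-21FGAA was 0.78 (adjusted p = 0.04). The call in G-NHA9-ΔDNA was lost without its library 2 (0.057), and with the 8-week libraries alone all 3 calls were lost (0.92 to 1.00, adjusted p 0.067 to 0.088).

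Hist1h1c and Hist1h1e, the 2 most abundant H1 genes by counts, showed their highest values in G-NHA9Midi. Hist1h1c (ENSMUSG00000036181.2, chr13, 23738808 to 23740367, plus strand) was at 696, 583, 632, 507 and 475 CPM in the empty vector, and in G-NHA9Midi 4 of 5 libraries lay above them all. It was called in G-NHA9Midi alone (0.51, SE 0.19, adjusted p = 0.03), and the other constructs were at 0.14 to 0.34 (edgeR). The call was lost without empty-vector library 2, 4 or 5 (0.051, 0.08 and 0.094) or G-NHA9Midi library 2 or 5 (0.12 and 0.067), and with the 8-week libraries alone (0.36, adjusted p = 0.24, edgeR). Hist1h1e was at 300, 298, 298, 262 and 304 CPM in the empty vector and at 224, 696, 502, 471 and 598 CPM in G-NHA9Midi. Its log2 fold change was 0.77 (adjusted p = 0.0034) in G-NHA9Midi, also called with the 8-week libraries alone (0.73, 0.032), and 0.55 (0.046) in G-NHA9-8FA, a call lost without any 1 of the 5 empty-vector libraries (0.07 to 0.11) or without library 4 or 5 of its own (0.23 and 0.19) or with the 8-week libraries alone (0.18). In G-NHA9 it was 0.52 (0.053), and 0.52 (0.033) with pairing. Hist1h1d was at 0.53 to 0.77 and called in no construct (adjusted p 0.062 to 0.23, edgeR). With pairing it was 0.67 (0.042) in G-NHA9 and 0.75 (0.035) in G-NHA9-ΔDNA.

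Hist1h1t, the testis form of H1, was at under 2 CPM throughout. It was at 0.133 to 0.704 CPM in the empty vector, 0.551 to 1.41 in G-NHA9 and 0.785 to 1.36 in G-NHA9-ΔDNA, at 1.16 (adjusted p = 0.014) and 1.19 (0.022) on the log2 scale. It was lower in G-NHA9-8FA than in G-NHA9 (-1.30, adjusted p = 0.014, edgeR), also with the 8-week libraries alone (-1.33, 0.014) but not with only the 2 groups in the fit. The call in G-NHA9 was lost without empty-vector library 2 (0.053), and that in G-NHA9-ΔDNA without empty-vector library 2 or 4 (0.075 and 0.068) or its own library 2 or 3 (0.061 and 0.055). Both were lost with the 8-week libraries alone (0.055 and 0.071). The other testis genes, Hist1h2aa and Hist1h2ba, had too few counts to be tested.

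The make-up of H1 therefore differed between groups, as a description. Hist1h1c made up 45.7% ± 2.94 of the summed H1 level in the empty vector (SD, n = 5), 45.2% ± 6.58 in G-NHA9-8FA and 44.5% ± 5.38 in G-NHA9Midi, but 38.4% ± 4.8 in G-NHA9, 37.8% ± 4.13 in G-NHA9-21FGAA, 38.7% ± 3.61 in G-NHA9Midi-21FGAA and 38.3% ± 1.71 in G-NHA9-ΔDNA. Hist1h1b made up 9.8%, 9.04% and 8.57% in the first 3 groups and 13.8%, 14.5%, 13.5% and 14.2% in the others. Per length of the gene model the order of levels was another one: over all libraries Hist1h4h was at 616 CPM per kb, Hist1h4f at 541, Hist1h1c at 443, Hist1h2bb at 364, Hist1h4c at 363, Hist1h4d at 307 and Hist1h1b at 279.

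**Figure D3:**
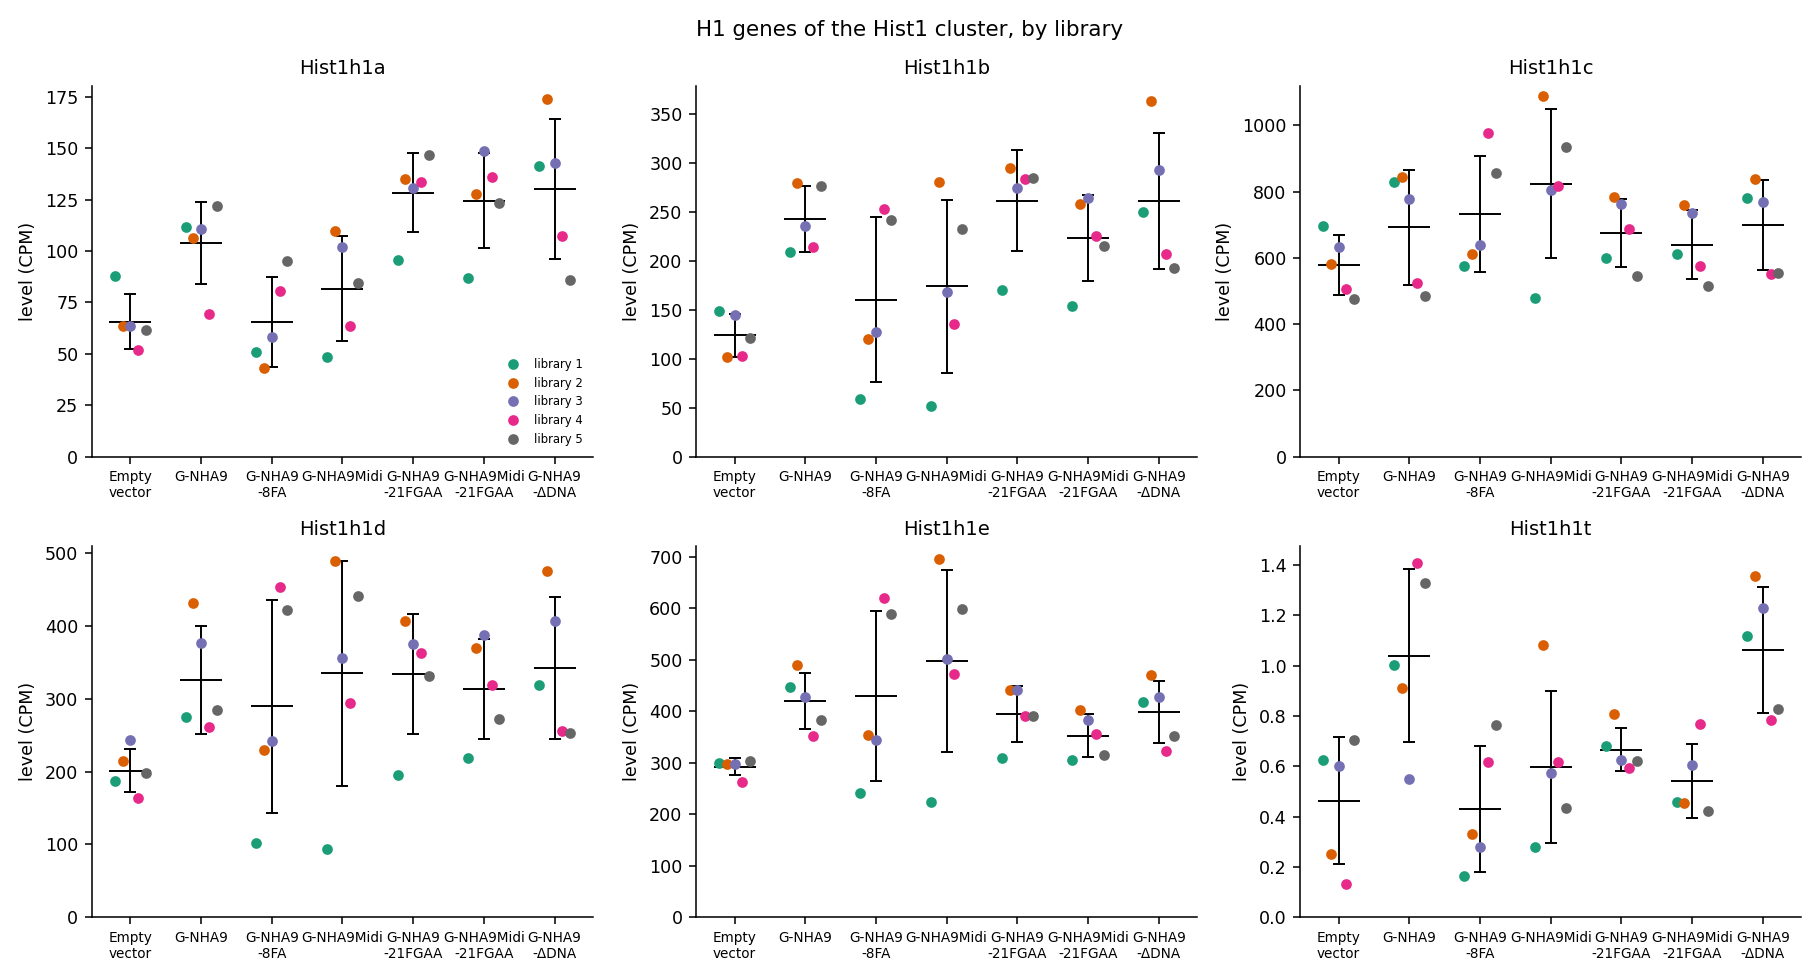
Level (CPM, y axis) of the 6 clustered H1 genes, 1 panel each, in every library of the 7 groups (x axis); points are libraries colored by number, and bars and whiskers are the mean and SD of 5. Hist1h1a in G-NHA9-8FA (42.9 to 95.01 CPM) sits on the empty vector (52.0 to 88.1 CPM) whereas in G-NHA9-21FGAA it lies above it, and Hist1h1c and Hist1h1e reach their highest values in G-NHA9Midi.

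The 7 members known to give polyadenylated forms as well (Hist1h1c, Hist1h2bc, Hist1h2be, Hist2h2be, Hist3h2a, Hist3h2ba and Hist4h4) had smaller median differences than the rest. Their medians were 0.26, 0.32, 0.40, 0.36, 0.32 and 0.40 on the log2 scale in the 6 constructs in the order above, against 0.82, 0.59, 0.75, 0.93, 0.74 and 0.88 for the other 59 tested members. Of the 7, 2, 2, 3, 3, 1 and 3 were higher, and 1 was lower in G-NHA9 and in G-NHA9-8FA. Hist1h2bc was at 102, 100, 98.5, 73.1 and 74.6 CPM in the empty vector and at 105, 134, 124, 90.1 and 84.9 CPM in G-NHA9, which overlap, and its log2 fold changes were 0.26 to 0.40 (adjusted p 0.11 to 0.27, edgeR). Hist2h2be was at 9.02 ± 2.09 CPM in the empty vector and at 10.1 to 11.9 CPM on average in the constructs, with log2 fold changes of 0.16 to 0.40 (adjusted p 0.14 to 0.62). Hist1h1c (0.14 to 0.51) and Hist3h2a (-0.32 to 0.36) were low as well. The smaller median was not shared by all 7, however. Hist1h2be (0.75 to 0.98) and Hist4h4 (0.66 to 0.96) were each called higher in 5 constructs, and Hist3h2ba ran from -0.90 to 1.74. No test compared the 2 sets of members.

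Hist3h2ba, an H2B gene of the Hist3 cluster (chr11, 58948920 to 58949533, plus strand), was the member that departed from the others. It was at 1.13, 1.42, 1.04, 0.830 and 0.918 CPM in the empty vector, at 0.473, 0.592, 0.754, 0.618 and 0.442 CPM in G-NHA9 and at 0.513, 0.567, 0.755, 0.385 and 0.856 CPM in G-NHA9-8FA. All G-NHA9 libraries lay below all of the empty vector, and 4 of the 5 of G-NHA9-8FA did. In G-NHA9-21FGAA it was at 1.68, 3.81, 2.78, 3.48 and 4.30 CPM, in G-NHA9Midi-21FGAA at 2.41, 3.60, 4.31, 3.75 and 3.87 CPM and in G-NHA9-ΔDNA at 2.42, 3.16, 3.32, 1.97 and 1.46 CPM. These 15 libraries all lay above the empty vector. In G-NHA9Midi it was at 0.558, 1.14, 1.49, 0.695 and 1.22 CPM, around the empty vector.

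The log2 fold change of Hist3h2ba against the empty vector was 1.58 (SE 0.27, adjusted p = 6.7e-05) in G-NHA9-21FGAA, 1.74 (2e-04) in G-NHA9Midi-21FGAA and 1.20 (0.0027) in G-NHA9-ΔDNA, and these calls held whichever library was left out and with the 8-week libraries alone (1.43, 1.59 and 1.04). It was -0.90 (0.015) in G-NHA9, -0.81 (0.032) in G-NHA9-8FA and -0.07 (0.86) in G-NHA9Midi. The lower calls held with the 8-week libraries alone (adjusted p = 0.029 and 0.03) but not without TMM factors (-0.72 and -0.75, adjusted p = 0.052 and 0.051). The call in G-NHA9 was also lost without empty-vector library 2 (0.051), and that in G-NHA9-8FA without empty-vector library 1 or 2 (0.051 and 0.087) or its own library 1, 2 or 4 (0.063, 0.058 and 0.09). Against G-NHA9 it was higher in G-NHA9-21FGAA (2.47, adjusted p = 4.7e-08), in G-NHA9-ΔDNA (2.09, 7.9e-07) and in G-NHA9Midi (0.83, 0.038), the last lost with the 8-week libraries alone (0.76, 0.082), and against G-NHA9Midi it was higher in G-NHA9Midi-21FGAA (1.81, 1.2e-06, edgeR).

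Markers of erythroid cells moved with Hist3h2ba in part. The summed level of 14 erythroid genes was 798, 441, 365, 283 and 442 CPM in the empty vector, 262 to 662 in G-NHA9, 65.2 to 140 in G-NHA9-8FA, 117 to 278 in G-NHA9Midi, 527 to 2053 in G-NHA9-21FGAA, 582 to 1888 in G-NHA9Midi-21FGAA and 545 to 1852 in G-NHA9-ΔDNA, and none of the 14 was at 0 in any group. Of the 14, 9, 11 and 6 were higher in G-NHA9-21FGAA, G-NHA9Midi-21FGAA and G-NHA9-ΔDNA. In G-NHA9-8FA 13 were lower and in G-NHA9Midi 12 were lower and 1 higher, while in G-NHA9, where Hist3h2ba was lower, 2 were higher and none lower. The part of erythroid cells in the levels of Hist3h2ba was not tested. The neighbouring Hist3h2a, an H2A gene, had log2 fold changes of -0.32 to 0.36 and was called in no comparison with the empty vector. It was higher in G-NHA9Midi than in G-NHA9 (0.68, adjusted p = 0.0048), and its model overlaps Trim17 on the same strand.

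**Figure D4:**
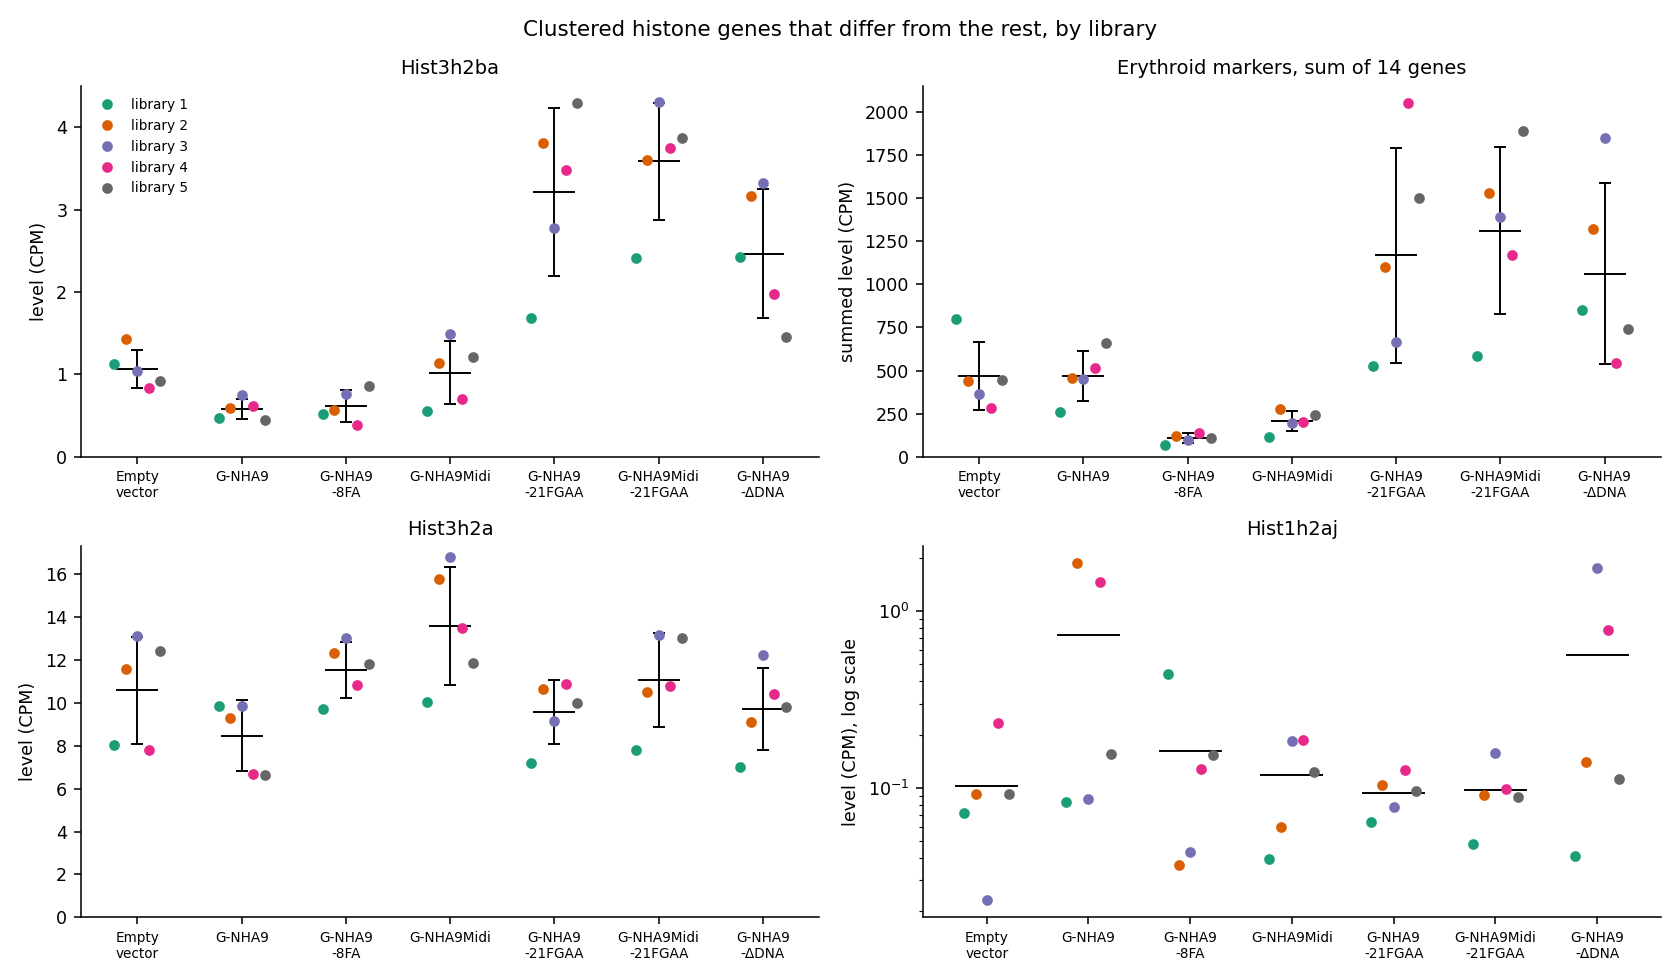
Level (CPM, y axis) of Hist3h2ba, Hist3h2a and Hist1h2aj and the summed level of 14 erythroid markers, 1 panel each, in every library of the 7 groups (x axis); points are libraries colored by number, bars and whiskers are the mean and SD of 5, and the Hist1h2aj panel has a log axis and no SD. Hist3h2ba is lowest in G-NHA9 and G-NHA9-8FA and lies above the empty vector (0.830 to 1.42 CPM) in all libraries of the 21FGAA and ΔDNA forms. Hist1h2aj is highest in some, not all, libraries of G-NHA9 and G-NHA9-ΔDNA.

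The largest fold changes belonged to members with few reads and near-identical copies. For 14 of the 69 genes, 80% or more of the 100-base words occur in another gene, and their median level was 1.07 CPM, against 63.4 CPM for the other 55, so their counts depend on how shared reads were handled and are uncertain. Hist1h2aj, with 91.7% of its words shared, was at 1.86 and 1.46 CPM in libraries 2 and 4 of G-NHA9 and at 1.74 and 0.785 CPM in libraries 3 and 4 of G-NHA9-ΔDNA, and at 0.443 CPM or less in every other library. Its log2 fold change of 2.92 in G-NHA9 (adjusted p = 0.0092) was lost without G-NHA9 library 2 (0.061). That of 2.52 in G-NHA9-ΔDNA (0.043) was lost without its own library 3 or 4 (0.31 and 0.077), without empty-vector library 1, 2, 3 or 5 (0.072 to 0.11) and with pairing (0.052, edgeR).

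The calls of Hist2h2aa1, Hist1h2br and Hist2h3c2 also rested on few reads or few libraries. Hist2h2aa1 (88.3% of words shared) was at 0.676 CPM or less in every library and was called in G-NHA9 (1.85), G-NHA9-21FGAA (1.74) and G-NHA9Midi-21FGAA (2.09), each call lost without empty-vector library 2 (adjusted p 0.054 to 0.099) and others. Hist1h2br (86.4%) was called in G-NHA9-8FA (1.61), G-NHA9-21FGAA (1.47) and G-NHA9-ΔDNA (2.38). The first 2 were lost without empty-vector library 1, 2 or 5 (0.06 to 0.09) and without own libraries (0.058 to 0.14), and the last held whichever library was left out, though 2 of its libraries (2.13 and 2.74 CPM) stood above the other 3 (0.262 to 0.744 CPM). Hist2h3c2 (61.6%) in G-NHA9-8FA (1.25, adjusted p = 0.027) rested on library 4, at 13.7 CPM where the others were at 1.82 to 5.53, and was lost without it (0.32), without empty-vector library 1 or 2 (0.065 and 0.061) and with only the 2 groups in the fit (0.069). Hist1h2ap (92.2%), at 0.94 to 1.13 in the 6 constructs and 0.245 to 1.76 CPM throughout, and Hist1h2bq (94.8%), called in G-NHA9Midi (1.07, adjusted p = 0.031, edgeR), were each lost without empty-vector library 2 or 5 and without 1 or more libraries of the construct (0.056 to 0.16). Hist1h2bp (31.1%) was called in G-NHA9 (0.96), G-NHA9Midi (1.07), G-NHA9-21FGAA (1.03) and G-NHA9-ΔDNA (0.89), and in G-NHA9Midi and G-NHA9-21FGAA whichever library was left out. The call in G-NHA9 was lost without empty-vector library 5 or its own library 2 (0.059 and 0.07), and that in G-NHA9-ΔDNA without empty-vector library 2, 4 or 5 or its own library 1, 2 or 3 (0.084 to 0.15, edgeR). All 4 were lost with the 8-week libraries alone (0.1 to 0.25).

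Most calls of the genes with few reads or shared copies were also lost with the 8-week libraries alone. Those of Hist1h2aj in G-NHA9 (3.80, adjusted p = 0.0096) and of Hist1h2br in G-NHA9-ΔDNA (2.46, 0.019) held. Those of Hist1h2aj in G-NHA9-ΔDNA (0.056), Hist1h2br in G-NHA9-8FA and G-NHA9-21FGAA (0.078 and 0.097), Hist2h2aa1 (0.062 to 0.086), Hist2h3c2 (0.065), Hist1h2ap (0.079 to 0.2) and Hist1h2bq (0.2) did not (edgeR).

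Comparisons between constructs asked whether the changed FG motifs, the shorter NUP98 part or the weakened homeodomain altered the histone genes. Few members differed. Against G-NHA9, 0 members were higher and 2 lower in G-NHA9-8FA, where 6.43% of all genes were higher and 8.04% lower (14.5% in all). In G-NHA9Midi 2 were higher and 1 lower, against 8.5% and 11.2% (19.7%). In G-NHA9-21FGAA 1 was higher and 1 lower, against 8.91% and 8.34% (17.2%), and in G-NHA9-ΔDNA 1 was higher and none lower, against 10.7% and 11.4% (22.1%). Against G-NHA9Midi, 2 were higher and none lower in G-NHA9Midi-21FGAA, against 21% and 22.2% (43.2%). The genes were Hist1h1a and Hist1h1t for G-NHA9-8FA, Hist3h2a, Hist3h2ba and Hist1h2aj for G-NHA9Midi, Hist3h2ba and Hist1h2aj for G-NHA9-21FGAA, Hist3h2ba for G-NHA9-ΔDNA, and Hist3h2ba and Hist1h1a for G-NHA9Midi-21FGAA. The median log2 fold changes of the 66 members were -0.22, -0.05, 0.06, 0.03 and -0.09. The number of members with all 5 libraries above all 5 of the other construct was 0, 1, 1, 1 and 1 (3.72%, 5.42%, 6.38%, 7.03% and 14.2% of all genes), and with all 5 below it was 0 (5.69%, 7.65%, 5.13%, 7.21% and 15.9%). With the 8-week libraries alone the counts against G-NHA9 were 2, 2, 2 and 1, where 15.1%, 19.7%, 15.5% and 19.7% of all genes were called. The members called were not the same throughout. They were Hist1h1t and Hist1h2aj for G-NHA9-8FA, Hist3h2a and Hist1h2aj for G-NHA9Midi, Hist3h2ba and Hist1h2aj for G-NHA9-21FGAA and Hist3h2ba for G-NHA9-ΔDNA. Single libraries moved these small counts: that for G-NHA9-8FA was 1 without G-NHA9 library 2 or its own library 1, 2 or 3, that for G-NHA9Midi 1 without G-NHA9 library 4 or with only the 2 groups in the fit and 4 without G-NHA9 library 3 or its own library 2, and that for G-NHA9-21FGAA 1 without G-NHA9 library 2 or with only the 2 groups in the fit. That for G-NHA9-ΔDNA was 2 without its library 4, and that for G-NHA9Midi-21FGAA was 7 without G-NHA9Midi library 1, 1 without G-NHA9Midi library 4 or its own library 3 or 4, and 4 without its own library 2.

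Sequence features did not divide the members by response in any large measure. The 21 genes whose model ends within 60 bases after the stem-loop had medians of 0.83, 0.62, 0.74, 0.97, 0.74 and 0.90 in the 6 constructs, the 22 tested genes whose model runs farther 0.74, 0.54, 0.79, 0.74, 0.53 and 0.73, and the 23 tested genes without a stem-loop in the model 0.83, 0.48, 0.67, 0.95, 0.75 and 0.91. Among the H2A and H2B genes, the 11 tested with the octamer in the promoter had medians of 0.86, 0.60, 0.74, 0.91, 0.74 and 0.88 and the 21 without it 0.92, 0.60, 0.78, 0.98, 0.80 and 0.94. These are descriptions over few genes, with no test.

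The genes around the histone genes in their pathway were taken from fixed lists. Of 42 DNA replication genes, whose products act in the same S phase, 37, 10, 20, 37, 35 and 37 were higher in G-NHA9, G-NHA9-8FA, G-NHA9Midi, G-NHA9-21FGAA, G-NHA9Midi-21FGAA and G-NHA9-ΔDNA and none was lower, with medians of 0.60, 0.22, 0.33, 0.67, 0.65 and 0.75. Of 16 mitosis genes, 15, 0, 1, 16, 13 and 15 were higher and none lower, with medians of 0.75, 0.14, 0.22, 0.85, 0.73 and 0.86. The histone medians were above those of the replication genes in every construct. They were above those of the mitosis genes in all but G-NHA9Midi-21FGAA (0.73 in both). The gaps were widest in G-NHA9-8FA and G-NHA9Midi, with histone medians of 0.56 and 0.74, a comparison of medians without a test. With the 8-week libraries alone, 28, 3, 9, 35, 26 and 31 replication genes were still higher (1 was lower in G-NHA9Midi), as were 8, 0, 0, 13, 3 and 11 mitosis genes, where 6, 0, 6, 7, 1 and 6 histone genes were.

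**Figure D5:**
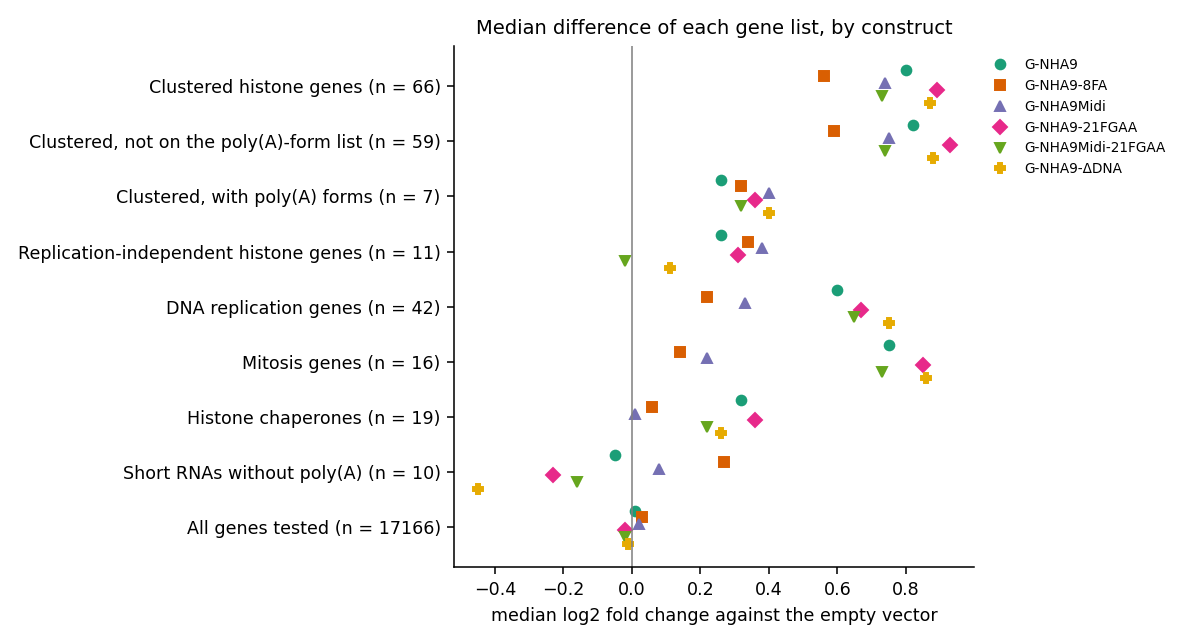
Median log2 fold change against the empty vector (x axis) of the clustered histone genes and of lists of related genes (y axis); each point is the median over the tested genes of 1 list in 1 of the 6 constructs, told apart by color and shape. The histone genes stay between 0.56 and 0.89, whereas the mitosis genes are at 0.14 and 0.22 in G-NHA9-8FA and G-NHA9Midi and at 0.73 to 0.86 in the other 4.

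The regulators of histone mRNA had medians of 0.28, 0.12, 0.15, 0.34, 0.33 and 0.40 for the transcription factors and cyclins and of 0.20, 0.01, 0.10, 0.17, 0.15 and 0.19 for the processing and turnover genes. Slbp, which binds the stem-loop, was higher in G-NHA9-21FGAA (0.40, adjusted p = 0.0084), G-NHA9Midi-21FGAA (0.38, 0.02) and G-NHA9-ΔDNA (0.48, 0.0042) and was at 0.22, 0.14 and 0.18 in G-NHA9, G-NHA9-8FA and G-NHA9Midi, which did not pass. Npat was called in G-NHA9-21FGAA alone (0.45, 0.013), with the other constructs at 0.14 to 0.37 (edgeR). Ccne2, listed with Ccne1 as a gene of cyclin E, which with Cdk2 activates NPAT, was higher in G-NHA9-21FGAA (0.81), G-NHA9Midi-21FGAA (0.96) and G-NHA9-ΔDNA (1.01). Cdk2 was higher in all 6 constructs (0.25 to 0.49). Of the 8 transcription factors and cyclins listed, 2, 2, 2, 4, 3 and 3 were higher, and 1 was lower in G-NHA9Midi and in G-NHA9Midi-21FGAA.

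Of 16 genes of histone mRNA processing and turnover, 5, 2, 6, 6, 6 and 6 were higher and 2, 1, 3, 1, 1 and 1 lower. Cstf2, a cleavage factor subunit, was higher in all 6 constructs (0.39 to 0.79). Zfp473, a zinc finger protein of the processing complex, was lower in G-NHA9 (-0.78), G-NHA9-8FA (-1.31) and G-NHA9Midi (-1.78) and at -0.14 to 0.19 in the other 3, which did not pass. Of 19 histone chaperones, which carry histones to DNA, 10, 5, 5, 13, 5 and 10 were higher and 0, 1, 1, 0, 1 and 0 lower. Among them Asf1b and Chaf1b were higher in G-NHA9, G-NHA9-21FGAA, G-NHA9Midi-21FGAA and G-NHA9-ΔDNA (0.26 to 0.80) and lay between -0.04 and 0.06 in G-NHA9-8FA and G-NHA9Midi.

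The 11 histone genes outside the clusters, which are also used outside S phase, had medians of 0.26, 0.34, 0.38, 0.31, -0.02 and 0.11, below those of the clustered genes in every construct. Of these, 5, 3, 5, 4, 1 and 2 were higher and none lower. The genes that stood out encode macroH2A: H2afy was higher in G-NHA9 (1.17), G-NHA9-8FA (0.77), G-NHA9Midi (1.03) and G-NHA9-21FGAA (0.31), and H2afy2 in G-NHA9 (4.28), G-NHA9-8FA (2.89) and G-NHA9Midi (2.92). H2afy2 was at 0.81 (adjusted p = 0.091) in G-NHA9-21FGAA and at -0.07 in G-NHA9Midi-21FGAA and G-NHA9-ΔDNA (edgeR). The 10 listed short RNAs without a poly(A) tail had medians of -0.05, 0.27, 0.08, -0.23, -0.16 and -0.45, with at most 2 called in either direction.

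Markers of other cell types also differed between groups, and their part in the histone levels was not tested. Early granulocyte markers were higher for 4, 4, 3, 5, 0 and 5 of 5 genes. Of 9 mast cell and basophil markers 7 were lower in G-NHA9, G-NHA9-8FA and G-NHA9Midi, and 3 and 4 were higher in G-NHA9-21FGAA and G-NHA9Midi-21FGAA. Megakaryocyte markers were lower for 2, 7 and 7 of 7 genes and eosinophil markers for 3, 6 and 6 of 7 in G-NHA9, G-NHA9-8FA and G-NHA9Midi. Of 8 late neutrophil markers 0, 4, 2, 0, 0 and 2 were higher and 2, 0, 3, 2, 2 and 2 lower, and of 9 macrophage markers 3, 0, 0, 0, 0 and 0 were higher and 3, 3, 6, 5, 1 and 3 lower. Stem and progenitor markers were higher for 3, 2, 3, 3, 3 and 2 of 7 genes and lower for 1, 1, 2, 0, 0 and 1.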

How the data were processed

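The authors deposited a table of whole-number read counts per gene, not normalized. Per the labels' processing notes STAR 2.7.0d, HTSeq 0.11.2, DESeq2 and mm10 were used, in roles the notes do not give. The annotation and strand option of the counting are not given in the sources used here, so reads of overlapping genes and near-identical copies may be misassigned. Total counts set the precision, and limits on low counts cover counting error only. The members and lists were chosen with earlier results of these data known.

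Genes were filtered with filterByExpr by group (17166 kept, with 99.96% of the counts) and scaled by TMM (factors 0.899 to 1.11), and a quasi-likelihood model with a mean for each of 7 groups was fitted to 35 libraries in edgeR 4.0.16 (R 4.3.3, limma 3.58.1), with Benjamini-Hochberg adjustment over all genes and a threshold of 0.05. Libraries of a group were checked for copies (70 pairs, chi-square per degree of freedom at least 23.2). Named were all H1 genes, the 3 most abundant genes of each other type, the 3 largest called changes in each direction per construct, the members with polyadenylated or testis forms, Hoxa9 and genes of the lists. Genes outside this rule are named with the reason. The library numbers were taken to pair libraries where all 5 same-number deviations from the group means correlated above 0.1. This held in 5 of 11 comparisons. With the empty vector as control these were G-NHA9 (lowest 0.242), the ΔDNA form (0.247) and G-NHA9Midi-21FGAA (0.124). With G-NHA9 as control they were the ΔDNA (0.136) and 21FGAA (0.189) forms. The 21FGAA form against the empty vector fell short (lowest -0.0978), though G-NHA9 reached the limit with both. A comparison below the limit is thus not shown to be unpaired. Alternatives were the number as a block, DESeq2 1.42.0, RLE factors, no TMM, other filters, fits of 2 groups and left-out libraries. Others were added after the data were seen: leaving out 1 number in every group, and the 8-week libraries alone. Gene models came from GENCODE M21 (45 members with the same version, 22 with another, 2 by symbol). The fit was tested on simulated data. Figures were drawn in Python 3.11.15.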

Additional observations from a re-analysis of the deposited data

Results flagged for a closer look

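In 217 checks of single genes and summed levels within groups of 5 libraries, 6 had 1 library far from the other 4 by Dixon's test, which chance alone gives in about 1 of 20 groups. Hist1h1e was lowest in library 4 of the empty vector, at 262 CPM where the others were at 298 to 304. Hist1h1b was lowest in library 1 of G-NHA9-21FGAA, at 171 CPM against 275 to 296. Hist2h2be was lowest in library 1 of G-NHA9Midi, at 6.7 CPM against 12.7 to 14.5, and in library 1 of G-NHA9Midi-21FGAA, at 5.46 CPM against 11.4 to 13.5. Hist1h2br was highest in library 3 of G-NHA9-21FGAA, at 1.29 CPM against 0.477 to 0.642, and Hist1h2aj in library 1 of G-NHA9-8FA, at 0.443 CPM against 0.0366 to 0.153, both with reads that near-identical copies could share.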

How the results depend on the processing

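Most counts of called histone genes moved with the processing, while no single-gene call changed sign: of 2030 recomputed values of named genes 1491 stayed past the threshold and 539 did not. The counts called against the empty vector are given in the order G-NHA9, G-NHA9-8FA, G-NHA9Midi, G-NHA9-21FGAA, G-NHA9Midi-21FGAA and G-NHA9-ΔDNA (44, 13, 34, 46, 19 and 41). Leaving out 1 library of the groups compared gave 21 to 47, 1 to 25, 15 to 58, 36 to 50, 7 to 31 and 12 to 46. Without library 1 of every group they were 55, 48, 56, 54, 48 and 50, without library 2 they were 7, 8, 10, 24, 6 and 3, without library 3 they were 17, 8, 14, 33, 4 and 6, without library 4 they were 16, 0, 19, 12, 2 and 16, and without library 5 they were 31, 1, 12, 29, 7 and 38, where the 1 in G-NHA9-8FA was lower and not higher. The 8-week libraries alone gave 7, 1, 6, 7, 1 and 6, where again the 1 in G-NHA9-8FA was lower. For G-NHA9-8FA the count was 8 without a filter, 8 with only the groups compared and 24 with the replicate block. For G-NHA9Midi-21FGAA it was 42 without TMM factors, 41 with only the groups compared, 32 with DESeq2 and 31 with the replicate block. The cause of these shifts was not tested, except that fewer libraries enter a fit when some are left out. Shares of all genes called in the fits with left-out libraries or numbers are not given here. These counts thus do not show whether the histone genes moved more than other genes. Without TMM factors the median of all genes moved by 0.08 to 0.19 on the log2 scale. Against another construct (2, 3, 2, 1 and 2 called for G-NHA9-8FA, G-NHA9Midi, the 21FGAA form and the ΔDNA form against G-NHA9, and for G-NHA9Midi-21FGAA against G-NHA9Midi), leaving out 1 library gave 1 to 2, 1 to 4, 1 to 2, 1 to 2 and 1 to 7. The 4 came without G-NHA9 library 3 (2 higher and 2 lower) or G-NHA9Midi library 2 (1 higher and 3 lower) and the 7 without G-NHA9Midi library 1 (1 higher and 6 lower), so that without either G-NHA9Midi library most calls were lower. Without library 1 of every group the counts were 2, 3, 2, 1 and 3, without library 2 they were 1, 2, 1, 1 and 4, without library 3 they were 1, 2, 2, 1 and 1, without library 4 they were 2, 1, 1, 1 and 1, and without library 5 they were 2, 2, 2, 1 and 3. A filter at a mean of 1 CPM gave 1 for G-NHA9-8FA and 1 for G-NHA9-21FGAA, only the groups compared gave 0, 1 and 1 for the first 3, and the replicate block gave 4 for G-NHA9Midi-21FGAA. Against the empty vector, the replicate block gave 24, 37 and 53 for G-NHA9-8FA, G-NHA9Midi and G-NHA9-21FGAA, where the limit set for pairing was not reached. In those fits 34.5%, 48.6% and 35.1% of all genes were called. It gave 55, 31 and 45 for G-NHA9, G-NHA9Midi-21FGAA and G-NHA9-ΔDNA, where the limit was reached, with 40.2%, 25.4% and 25% of all genes called. Depth limits the genes with shared copies most, whose median level was 1.07 CPM. Leaving out library numbers and the restriction by age were chosen after seeing the data.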
